A study of Mus musculus with 10 samples.

Results

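Endothelial cells line blood and lymph vessels, and 10 genes that mark them were followed through mouse colon tumours with and without the Wnt co-factors Bcl9 and Bcl9l. The genes were Pecam1, Cdh5, Kdr, Tek, Vwf, Cldn5, Emcn, Esam, Egfl7 and Plvap. Every probe set (a group of short array probes for a transcript) annotated to 1 of these genes and to no other was taken, which gave 14 of the 45101 probe sets on the array. Egfl7 had 4 probe sets, Cdh5 had 2, and the other genes had 1 each.

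The tumours were induced in mice aged 6 to 8 weeks by a dose of dimethylhydrazine, a carcinogen precursor, at 44 mg/kg. Dextran sulfate sodium, which injures the colon lining, followed at 2% in drinking water for 7 days, and both genotypes received both agents. The KO group (vil-Cre-Bcl9-/-/Bcl9l-/-) held 5 tumours from 3 mice: tumours 2 and 6 from mouse 02, tumours 9 and 11 from mouse 04, and tumour 7 from mouse 99. The WT group (wildtype) held 5 tumours from 2 mice: tumours 1, 3, 12 and 13 from mouse 72 and tumour 8 from mouse 82. All mice had a 129SvEv/C57BL/6/DBA/2 mixed background, and the labels do not say whether WT mice carried Cre. The vil-Cre transgene uses the promoter of villin, an epithelial gene of the intestine, so endothelial cells are not the cells in which it is known to act. Tumour tissue was cut out by laser from frozen sections, and RNA was amplified for 1 Affymetrix array per tumour. According to the labels, dissected samples from one animal were pooled, yet some animals have more than 1 array, and each array was taken here as 1 tumour. Values are log2 RMA signals, where a step of 1 is a doubling. Levels of different probe sets are not comparable with each other.

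As background, vessels are held together by endothelial junction proteins, grow and stabilise through receptor kinases for VEGF and angiopoietins, and take part in clotting. Their genes are widely used to gauge how many vessels a tissue sample holds. In a sample of whole tissue, fewer endothelial cells and less RNA per endothelial cell cannot be told apart. The array medians lay between 6.43 and 6.50, and the mean correlation of an array with the others was 0.964 for WT tumour 1 and 0.970 to 0.976 for the rest.

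The signal level of the set was read first. All 14 probe sets had a mean over the 10 tumours above log2 5.82, the level filter of the tests below (the 40th percentile of the array). Cldn5 was under that level in all 5 KO tumours and in WT tumour 3, Emcn in KO tumours 9 and 11 and in WT tumour 3, and Cdh5 in KO tumour 9. The second probe set of Cdh5 was under it in KO tumours 7 and 9 and in WT tumour 3, and 1 of the x_at probe sets of Egfl7 in WT tumour 3. Detection above background was not assessed.

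A promoter from RefSeq (GRCm38.p6) was found for 5 of the 10 members. The stretches before the transcript starts are shown for 4 of them, since Cldn5 and Tek had the most negative differences among the members with a promoter sequence at hand, and Kdr and Emcn, each with 1 window, had differences nearer 0. The fifth, Egfl7, has 3 windows and is given by its counts. Each line gives the 250 bases before the start used for that promoter, 5′ to 3′ on the strand of the gene. For Kdr, Tek and Emcn this start differs from the outermost start of the gene in RefSeq. The Kdr window lies wholly, and the Tek and Emcn windows partly, inside the span of the gene. Capitals mark GGAA or its reverse complement TTCC, the core of the sites bound by ETS factors, which are known to drive many endothelial genes.
Cldn5: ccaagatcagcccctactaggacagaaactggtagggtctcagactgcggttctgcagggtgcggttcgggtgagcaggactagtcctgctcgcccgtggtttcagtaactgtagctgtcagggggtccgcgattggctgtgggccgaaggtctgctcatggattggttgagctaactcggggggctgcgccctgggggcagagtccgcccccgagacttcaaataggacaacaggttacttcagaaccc
Tek: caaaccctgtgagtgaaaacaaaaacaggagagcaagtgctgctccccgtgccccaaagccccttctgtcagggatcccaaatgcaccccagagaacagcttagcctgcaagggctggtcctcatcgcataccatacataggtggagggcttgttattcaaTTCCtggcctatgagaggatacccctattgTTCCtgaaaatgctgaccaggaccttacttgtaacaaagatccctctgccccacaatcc
Kdr: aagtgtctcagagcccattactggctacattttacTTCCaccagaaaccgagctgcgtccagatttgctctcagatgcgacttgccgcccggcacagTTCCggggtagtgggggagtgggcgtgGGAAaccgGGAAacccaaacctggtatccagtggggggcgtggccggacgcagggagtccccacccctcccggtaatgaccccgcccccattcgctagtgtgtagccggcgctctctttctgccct
Emcn: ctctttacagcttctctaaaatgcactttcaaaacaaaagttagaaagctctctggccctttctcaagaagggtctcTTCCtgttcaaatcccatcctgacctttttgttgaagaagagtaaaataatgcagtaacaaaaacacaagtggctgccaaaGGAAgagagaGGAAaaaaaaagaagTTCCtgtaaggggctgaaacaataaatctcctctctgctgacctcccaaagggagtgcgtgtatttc

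These windows lie at chr16:18776597-18776846 on the plus strand (Cldn5), chr4:94739039-94739288 on the plus strand (Tek), chr5:75978456-75978705 on the minus strand (Kdr) and chr3:137340828-137341077 on the plus strand (Emcn). GGAA, searched on both strands, occurred 4 times in the Kdr window, 4 times in the Emcn window, 2 times in the Tek window and 0 times in the Cldn5 window. The 3 windows of Egfl7 held it 5, 3 and 1 times. Among 32851 promoter windows of 250 bases, 93.4% held it at least once, with a median of 3 matches. CTTTGA, part of the site of the TCF/LEF factors with which beta-catenin works, was in 1 of the 3 Egfl7 windows, 1 time, and in none of the 4 windows shown, beside 13.8% of all windows. AACAAT, a core of SOX sites, occurred 1 time each in the Tek and Emcn windows, beside 9.42% of all windows. Such matches describe the letters only.

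KO tumours were then compared with WT tumours, which asks whether loss of the co-factors went with a different content of endothelial transcripts. None of the 10 genes passed the test, and none separated the 5 KO from the 5 WT tumours. Cldn5, Tek and Vwf had the most negative differences, between −1.24 and −0.89 log2. For Pecam1, Emcn and Egfl7 the differences were within 0.05 log2 of 0. Genes were tested over all 12250 genes with limma, with the mouse as a random block and Benjamini-Hochberg adjustment at 0.05. Of all genes tested, 7.09% were called, 2.93% as lower in KO. An unadjusted p under 0.05 was reached by 2 members, Cldn5 and Vwf, where 22.4% of all genes reached it. A difference below 0 was seen for 7 of the 10 members and for 46.2% of all genes. A full separation with KO below WT occurred for none of the members and for 3.79% of all genes. The median difference over the members was −0.12 log2, and over all genes tested 0.03 log2. With single tumours left out, the members' median ran from −0.33 (without KO tumour 2) to −0.02 (without KO tumour 9), and it was −0.29 without WT tumour 3 and −0.05 without WT tumour 12.

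**Figure D1:**
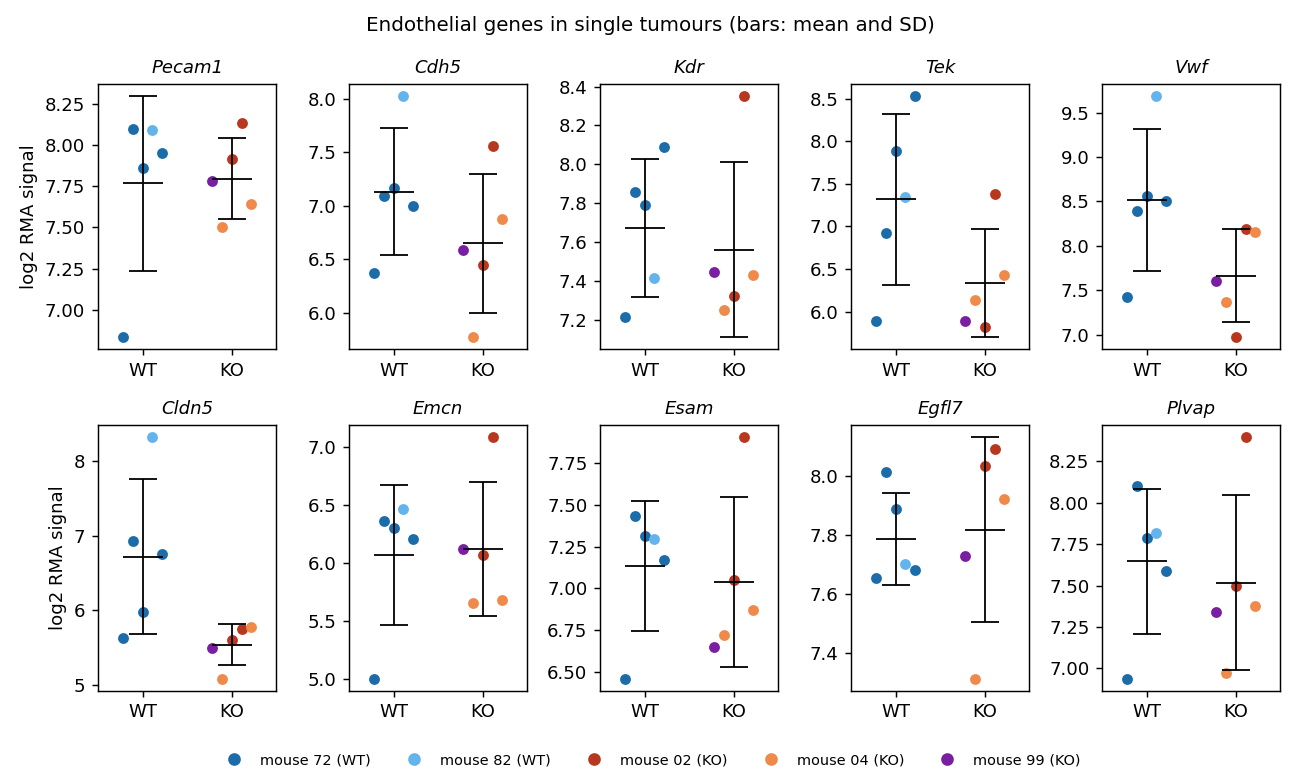
Log2 RMA signal of the 10 endothelial genes (1 panel per gene, each with its own axis) in 5 WT and 5 KO tumours; each point is a tumour coloured by mouse, and bars give the mean and SD. WT tumour 3 is the lowest WT point in every panel, and KO tumour 2 is the highest KO point in every panel but that of Cldn5, where it reaches 5.75 beside 5.77 in KO tumour 11.

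The junction genes come first. Cldn5 encodes claudin 5, the main tight junction claudin of endothelium. Its signal was 5.77, 5.75, 5.60, 5.49 and 5.08 in KO tumours 11, 2, 6, 7 and 9, and 6.75, 6.92, 5.98, 5.62 and 8.33 in WT tumours 1, 12, 13, 3 and 8. The KO tumours lay close together at the low end, and the WT tumours ran from that level up to the single tumour of mouse 82. The means were 5.54 ± 0.28 in KO and 6.72 ± 1.05 in WT (n = 5 tumours each, SD), and the fitted difference was −1.24 ± 0.44 log2 (SE), a 2.36-fold lower level with an adjusted p of 0.129 (limma). Fitted differences weight tumours by mouse and so depart slightly from the difference of the means. The KO mean was under the level filter, so this fold is not exact. Without WT tumour 8, the only tumour of mouse 82, the difference was −0.78 log2. Without mouse 72, which leaves that tumour as the only WT value and assumes that it varies like the others, it was −2.79 log2 and passed (adjusted p = 0.00891). Over all alternatives the adjusted p ranged from 0.00891 to 0.751.

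Cdh5 encodes VE-cadherin, the adhesion molecule of endothelial adherens junctions. On the probe set with the higher signal it stood at 6.88, 7.56, 6.45, 6.59 and 5.77 in KO tumours 11, 2, 6, 7 and 9, and at 7.00, 7.09, 7.16, 6.37 and 8.03 in WT tumours 1, 12, 13, 3 and 8. WT tumour 8 was again the highest of all, 3 KO tumours lay inside the span of the other WT tumours from 6.37 to 7.16, and KO tumour 9 lay below it. The difference was −0.51 ± 0.37 log2 (adjusted p = 0.452, limma). The second probe set, tested over 22760 probe sets, had a difference of −0.18 ± 0.36 log2, and the first −0.52 ± 0.37 in that fit. Of all probe sets tested 5.69% were called, and of the 14 endothelial ones none was.

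Pecam1 encodes CD31, an adhesion receptor of endothelium that platelets and leukocytes also carry. It was at 7.64, 8.13, 7.92, 7.78 and 7.50 in KO tumours 11, 2, 6, 7 and 9, and at 7.95, 8.10, 7.86, 6.83 and 8.09 in WT tumours 1, 12, 13, 3 and 8. Apart from WT tumour 3 the WT values spanned less than the KO values. The difference was 0.02 ± 0.25 log2, with a 95% confidence interval from −0.54 to 0.57. The estimate for Cldn5 lay outside this interval, but the Cldn5 interval, from −2.22 to −0.26, overlapped it. Whether these genes differ from each other was not tested. Without WT tumour 3 the Pecam1 difference was −0.21 log2 (adjusted p = 0.405, limma). Leukocyte genes, 7 of 10 tested, had list means from 8.60 to 8.77 in KO and from 7.45 to 8.23 in WT tumours, lowest in WT tumour 3. Their part in the Pecam1 signal was not tested.

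Esam, an adhesion molecule of endothelial tight junctions and platelets, was at 6.87, 7.91, 7.05, 6.65 and 6.72 in KO tumours 11, 2, 6, 7 and 9. In WT tumours 1, 12, 13, 3 and 8 it was at 7.17, 7.43, 7.32, 6.46 and 7.30. KO tumour 2 exceeded every WT tumour, and the other KO tumours lay below the 4 WT tumours other than tumour 3. The difference was −0.11 ± 0.27 log2 (adjusted p = 0.862, limma).

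Both receptor genes code for kinases on the endothelial surface. Kdr, the main signalling receptor for VEGF-A, was at 7.43, 8.35, 7.32, 7.45 and 7.25 in KO tumours 11, 2, 6, 7 and 9 and at 8.09, 7.86, 7.79, 7.21 and 7.41 in WT tumours 1, 12, 13, 3 and 8. A single KO tumour was above all WT tumours while the other 4 stood between 7.25 and 7.45. The difference was −0.11 ± 0.25 log2, with a 95% interval from −0.65 to 0.44.

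Tek, the angiopoietin receptor Tie2, was at 6.43, 7.38, 5.82, 5.89 and 6.14 in KO tumours 11, 2, 6, 7 and 9. In WT tumours 1, 12, 13, 3 and 8 it was at 8.53, 6.93, 7.88, 5.89 and 7.35. KO tumours other than tumour 2 reached at most 6.43, and WT tumours other than tumour 3 were at 6.93 or more. The difference was −0.99 ± 0.50 log2, a 1.99-fold lower level that did not pass (adjusted p = 0.272, limma). Those 2 tumours were the lowest WT and the highest KO tumour for Tek, so leaving them out could only widen the difference. In that alternative, added after the values were seen, it was −1.60 log2 and passed (adjusted p = 0.0304, limma). That call is therefore no support for a difference. The adjusted p ran from 0.0304 to 0.633 over the alternatives. The labels give each tumour a unique number, and the difference was −1.11 log2 among those numbered 191 to 229 (1 KO, 4 WT) and −2.09 log2 among those numbered 254 to 258 (4 KO, 1 WT), neither of which passed.

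Among the secreted products, Vwf encodes von Willebrand factor, a clotting protein stored in endothelium and platelets. It was at 8.16, 8.19, 6.97, 7.61 and 7.37 in KO tumours 11, 2, 6, 7 and 9 and at 8.50, 8.39, 8.56, 7.43 and 9.69 in WT tumours 1, 12, 13, 3 and 8. Only WT tumour 3 kept the groups from separating. The difference was −0.89 ± 0.40 log2, a 1.86-fold lower level (adjusted p = 0.215, limma), −0.56 without WT tumour 8 and −1.17 without WT tumour 3. Of 8 platelet genes listed, 4 were tested (Gp1bb, Itga2b, Pf4 and Gp9). A lower mean in KO than in WT, seen for 46.2% of all genes, was seen for all 4. None passed, beside 7.09% of all genes. Their mean level was 6.87 to 7.00 in KO and 7.12 to 7.27 in WT tumours, with Ppbp and Gp6 under the level filter at 4.00 and 3.59 over all tumours. Of 6 erythroid genes listed only Alas2 was tested, with a difference of −0.65 ± 0.20 log2 (adjusted p = 0.0783, limma). Hba-a1 and Slc4a1 were under the level filter, at 4.83 and 5.23 over all tumours. The part of blood cells in the Vwf signal was not tested.

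Egfl7 codes for a factor that endothelial cells secrete into their matrix. Its brightest probe set was at 7.92, 8.09, 8.03, 7.73 and 7.32 in KO tumours 11, 2, 6, 7 and 9 and at 7.68, 8.01, 7.89, 7.66 and 7.70 in WT tumours 1, 12, 13, 3 and 8. Among the brightest probe sets of the members, it varied least in the WT tumours (SD 0.15, against 0.15, 0.39 and 0.33 on the other Egfl7 probe sets). The difference was 0.03 ± 0.16 log2 on this probe set and −0.08 ± 0.11, −0.14 ± 0.21 and −0.29 ± 0.20 log2 on the other 3. Its probe sets did not follow each other closely, with correlations over the 10 tumours from 0.31 to 0.89, against 0.87 for the pair of Cdh5 probe sets. Of the 4 probe sets, 2 end in x_at, a kind that may also pick up similar transcripts.

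The last 2 members are surface glycoproteins. Emcn, endomucin, a sialomucin of veins and capillaries, was at 5.68, 7.08, 6.07, 6.12 and 5.65 in KO tumours 11, 2, 6, 7 and 9 and at 6.21, 6.36, 6.30, 5.01 and 6.47 in WT tumours 1, 12, 13, 3 and 8. The lowest value was that of WT tumour 3 and the highest that of KO tumour 2. The difference was 0.04 ± 0.35 log2 (95% interval −0.73 to 0.81).

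Plvap encodes the protein of the diaphragms that span endothelial pores. It was at 7.37, 8.40, 7.50, 7.34 and 6.97 in KO tumours 11, 2, 6, 7 and 9 and at 7.59, 8.10, 7.78, 6.94 and 7.82 in WT tumours 1, 12, 13, 3 and 8. Both genotypes covered nearly the same span. The difference was −0.14 ± 0.29 log2 (adjusted p = 0.825, limma).

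**Figure D2:**
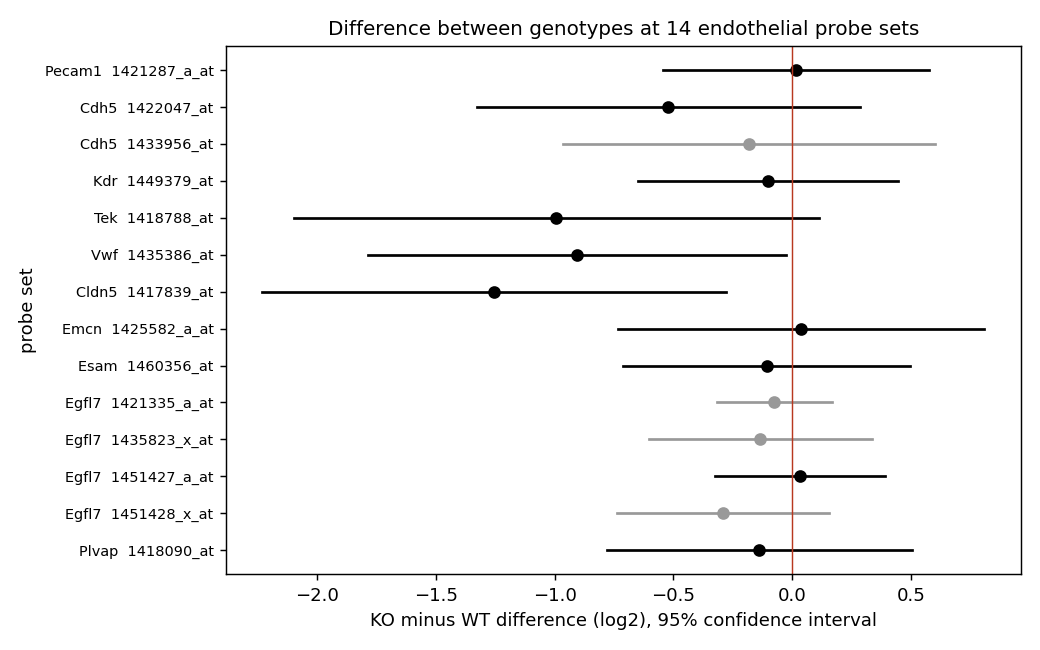
Difference of KO from WT tumours in log2 for the 14 endothelial probe sets, with the 95% confidence interval of each (horizontal axis), from the fit over all probe sets; black marks the probe set with the highest signal of each gene and grey the others. The intervals of Cldn5 and Vwf lie below 0 without adjustment for the number of tests, and those of the other 12 probe sets include 0.

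Each gene was also taken relative to the mean of the other 9 in the same tumour, which removes what they share. Cldn5 then stood at −1.63 ± 0.31 log2 relative to the others in KO and at −0.73 ± 0.81 in WT (SD over 5 tumours). For Tek the figures were −0.75 ± 0.37 and −0.07 ± 0.81, and for Vwf 0.73 ± 0.43 and 1.27 ± 0.47. With this measure, lower values of some members raise the others by construction. Emcn was at −0.98 ± 0.31 in KO and −1.45 ± 0.18 in WT, Egfl7 at 0.91 ± 0.30 and 0.46 ± 0.51, and Pecam1 at 0.88 ± 0.27 and 0.44 ± 0.14. Taken by themselves, these genes differed by only 0.04, 0.03 and 0.02 log2, so their shift here is no rise of their own. The genotypes overlapped for every member on this scale, and no test was made of it.

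Values spread widely among tumours of a genotype, and 2 tumours stood out. WT tumour 3 was the lowest of the WT tumours in 10 of 10 genes. Its difference from the mean of the other WT tumours was −1.78 log2 for Tek, −1.36 for Vwf, −1.33 for Emcn and −1.17 for Pecam1. That difference was least for Egfl7, at −0.16 on its brightest probe set. KO tumour 2 was the highest KO tumour in 9 of 10 genes. It differed from the mean of the other KO tumours by 1.31 log2 for Tek, 1.20 for Emcn, 1.13 for Cdh5 and 1.10 for Plvap, and least for Cldn5 at 0.27. KO tumour 9 was the lowest KO tumour in 7 genes. Tumours of a mouse did not stay together. The other tumour of mouse 02, tumour 6, was below tumour 2 in all 10 genes, and WT tumour 3 shares mouse 72 with 3 tumours of higher values. The mean over the members was 6.54 in WT tumour 3 and 7.45 to 7.82 in the other WT tumours, and 7.68 in KO tumour 2 and 6.58 to 7.01 in the other KO tumours. The difference of 3′ from 5′ control probe sets, a sign of RNA quality, was 1.17 log2 in KO tumour 2, the highest of the 10 arrays, and 0.78 in WT tumour 3, where the range was 0.71 to 1.17. With it as a covariate the members' median difference was 0.08 log2, and none of the members passed.

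After each genotype's mean was taken out, all 45 pairs of members correlated positively over the 10 tumours, with a median Pearson r of 0.65. The closest pairs were Esam with Plvap (0.96), Emcn with Plvap (0.94) and Emcn with Esam (0.92), and the loosest was Kdr with Cldn5 (0.13). Against the mean of the other members, Emcn, Plvap and Esam were closest (0.94, 0.93 and 0.91), and Cldn5 and Egfl7 were loosest (0.58 and 0.54). Egfl7 was read there on its brightest probe set, so its looseness may not hold for the gene. That probe set correlated with the other Egfl7 probe sets at 0.31, 0.67 and 0.52, and those among themselves at 0.74 to 0.89. Without WT tumour 3 and KO tumour 2 the median over pairs was 0.17, with 26 of 45 above 0, so much of the common movement rests on those 2 tumours. They were picked as the extremes of that movement, and leaving them out could be foreseen to lower it. The 10 tumours come from 5 mice and share one normalisation, and no p is given.

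Other tissue markers moved in the same tumours. Mural cell genes (9 of 10 tested), which mark the pericytes around vessels, had a mean level of 6.94 in WT tumour 3 and 7.65 to 7.78 in the other WT tumours. In KO tumour 2 it was 7.81, with 6.93 to 7.26 in the other KO tumours. Fibroblast genes (7 of 8 tested) were at 9.51 in WT tumour 3 against 10.43 to 10.69, and at 10.55 in KO tumour 2 against 9.69 to 9.99. Epithelial genes (10 of 10 tested) ran from 11.21 to 12.08 in WT tumours, with WT tumour 3 the second highest, and from 11.48 in KO tumour 2 to 11.97 in the other KO tumours. With genotype means out, the mean over the members correlated with that of mural genes at 0.97, of fibroblast genes at 0.94, of smooth muscle genes at 0.81 and of epithelial genes at −0.47 (Pearson r, Spearman 0.92, 0.94, 0.75 and −0.50). Without the same 2 tumours these were 0.67, 0.44, 0.08 and 0.07. The part of the amount of stroma in a dissected sample was not tested.

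**Figure D3:**
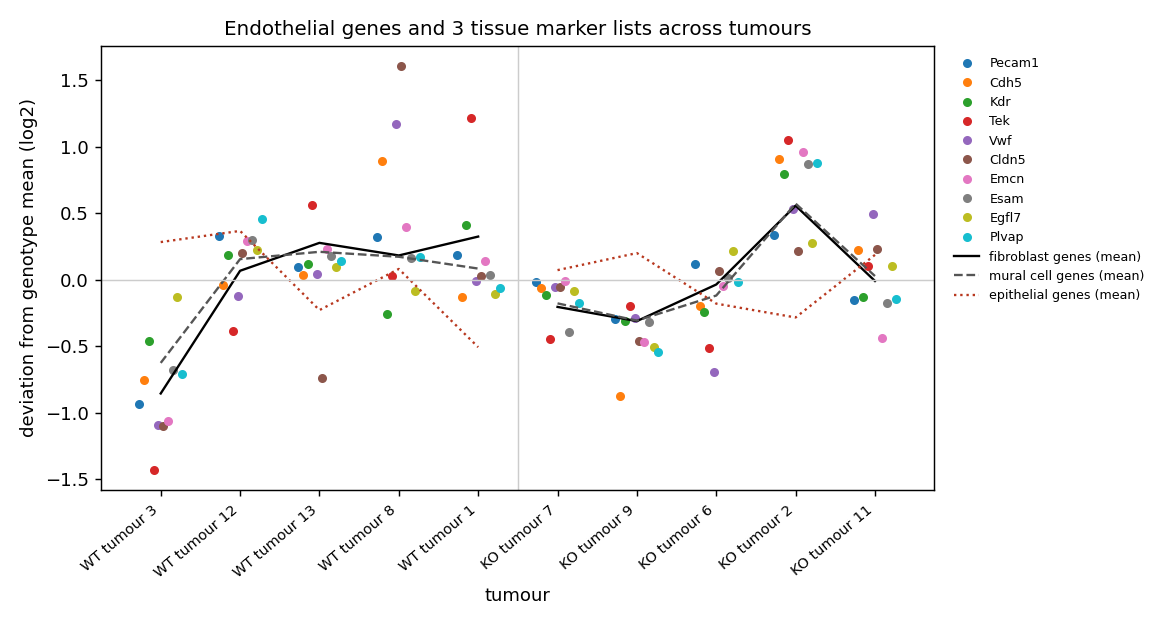
Deviation of each tumour from the mean of its genotype, in log2, for the 10 endothelial genes (points, 1 colour per gene) and for the mean of fibroblast, mural cell and epithelial genes (lines); WT tumours are on the left and KO tumours on the right. WT tumour 3 lies below 0 in all 10 genes, and KO tumour 2 lies above 0 in all 10, as do the fibroblast and mural lines there.

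Likeness to the mean of the members' standardised values was read over all 12250 genes tested, and genes with clone names were then left out. The 8 most alike of the rest, outside the members, were Sgce, Ms4a6d, Rgs5, Gkap1, Igfbp7, Itga5, Nid1 and Fgd5. Their Pearson r over the 10 tumours was between 0.96 and 0.97 and Spearman's rho between 0.88 and 0.96. They were picked as the highest of the genes without clone names. Without WT tumour 3 and KO tumour 2, r was highest for Gkap1 (0.87) and Ms4a6d (0.87) and lowest for Igfbp7 (0.55). Rgs5, a pericyte gene of the mural list, was at 9.59 ± 0.62 (KO) and 9.98 ± 0.57 (WT, SD, n = 5 each). None of the 8 was called, beside 7.09% of all genes, with adjusted p-values from 0.409 to 0.974 (limma).

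Further genes of endothelium were read from a list of 41, of which 40 were on the array and 23 reached the level filter. Of these 23, 1 fell and none rose, beside 2.93% and 4.16% of all genes. The median difference was −0.11 log2, with 17 below 0, beside 46.2% of all genes. Flt1, the receptor that binds VEGF-A and placental growth factor, fell 1.99-fold. It was at 6.75, 7.58, 6.54, 6.55 and 6.64 in KO tumours 11, 2, 6, 7 and 9 and at 8.28, 7.73, 7.49, 7.63 and 7.84 in WT tumours 1, 12, 13, 3 and 8. WT tumour 3, low in the 10 members, was not low here, and only KO tumour 2 reached the WT range. The difference was −0.99 ± 0.23 log2 (adjusted p = 0.0300, limma) and −1.05 over mouse means, where it also passed, and −0.65 as the mean of its probe sets, which passed too. Its adjusted p was 0.0514 to 0.0871 when KO tumour 6, 7 or 11 or WT tumour 1 or 8 was left out. Without mouse 04 it was 0.106, without mouse 72 0.320, with the 3′ to 5′ covariate 0.0690, and 0.129 and 0.135 among the lower and the upper unique numbers, so it did not pass there, with differences from −1.40 to −0.88 log2. Each of these number ranges has a single tumour of 1 genotype, as has the fit without mouse 72, so little can be read from a call kept or lost in them.

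Sox18, a transcription factor of vessel development, separated the genotypes without passing. It was 1 of the 23 with all KO tumours below all WT tumours, beside 3.79% of all genes. It was at 6.19, 7.18, 6.63, 5.99 and 5.22 in KO tumours 11, 2, 6, 7 and 9 and at 8.84, 7.58, 7.27, 7.37 and 7.60 in WT tumours 1, 12, 13, 3 and 8. The difference was −1.49 ± 0.40 log2 (adjusted p = 0.0509, limma), and it passed in 6 of 28 alternatives. Ptprb, an endothelial phosphatase, and the Notch receptor gene Notch4 differed by −0.48 and 0.54 log2 and did not pass.

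A list of ligands and receptors of vessel growth held 17 genes, 13 of them tested, with Kdr and Tek from the members and Flt1 again. Of the 13, 2 fell (Pgf and Flt1) and 1 rose (Dll4), beside 2.93% and 4.16% of all genes. Pgf, placental growth factor, a ligand of Flt1, was at 5.75, 5.85, 5.84, 6.10 and 5.83 in KO tumours 11, 2, 6, 7 and 9 and at 7.22, 6.55, 6.76, 6.61 and 7.03 in WT tumours 1, 12, 13, 3 and 8. The groups did not overlap, with KO below WT as in 3.79% of all genes. Pgf fell by 0.96 ± 0.15 log2, a 1.95-fold change (adjusted p = 0.00403, limma). KO tumour 11 was under the level filter of 5.82 and KO tumours 2, 6 and 9 just above it, so this fold is not exact. The difference was −0.62 log2 among the lower unique numbers, where it did not pass (adjusted p = 0.442, 1 KO tumour), and −1.40 among the upper (adjusted p = 0.0109, 1 WT tumour). The single tumour is assumed there to vary like the other group. In the other 26 alternatives it passed.

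Dll4, a Notch ligand of sprouting tip cells, was at 6.19, 6.43, 6.90, 6.39 and 6.54 in KO tumours 11, 2, 6, 7 and 9. In WT tumours 1, 12, 13, 3 and 8 it was at 5.91, 5.95, 6.01, 5.86 and 6.02. It rose by 0.54 ± 0.13 log2 in KO, without overlap of the groups (adjusted p = 0.0366, limma), but passed in only 12 of 28 alternatives. The WT values lay close to the level filter of 5.82, so the size of the rise is not exact. The share of all genes with every KO tumour above every WT tumour was not counted. Leaving out any one WT tumour, or KO tumour 6 or 9, ended the call (adjusted p = 0.0514 to 0.0859), as did leaving out mouse 02, 72 or 82 and using mouse means (0.50 log2, adjusted p = 0.157). Angpt2, which encodes an antagonist of Tek signalling in many settings, had a difference of −0.57 ± 0.27 log2 (adjusted p = 0.250). Vegfa, the main ligand of Kdr, named here outside the naming rule after its values were seen, had a difference of 0.21 ± 0.17 log2 (adjusted p = 0.495).

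**Figure D4:**
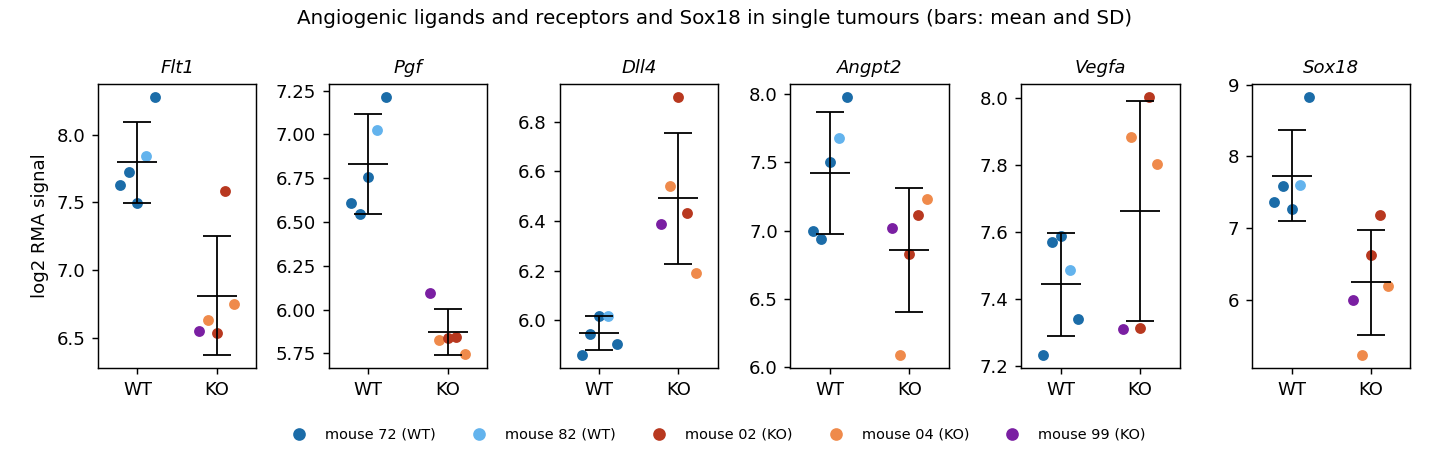
Log2 RMA signal of 6 genes of vessel growth (1 panel per gene, each with its own axis) in 5 WT and 5 KO tumours, coloured by mouse, with mean and SD. The KO tumours lie below the WT tumours without overlap for Pgf and Sox18 and above them for Dll4, and for Flt1 only KO tumour 2, at 7.58, reaches the WT range.

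Lymphatic genes were few. Of 7 listed, 4 were tested, and 1, Prox1, fell by 3.23 ± 0.39 log2 (adjusted p = 0.00117, limma), beside 2.93% of all genes called lower. Without mouse 72 it did not pass (−3.32 log2, adjusted p = 0.0626), and in the other alternatives it did. Prox1 directs lymphatic fate but is also made by colon tumour epithelium under Wnt control. Flt4, Pdpn and Lyve1, receptors and a surface mucin of lymphatic endothelium, differed by −0.31, 0.37 and −0.28 log2 and did not pass. Flt4 was at 6.83 ± 0.57 (KO) and 7.13 ± 0.50 (WT, SD, n = 5 each).

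No member of the mural, fibroblast, smooth muscle and epithelial lists passed, beside 7.09% of all genes. Their median differences were −0.41, −0.37, −0.06 and 0.12 log2. In the epithelial list the smallest p were those of Vil1 (0.69 ± 0.20 log2, adjusted p = 0.0716, limma) and Cldn4 (−0.79 ± 0.30 log2, adjusted p = 0.147). All 9 tested mural genes and 6 of 7 fibroblast genes had lower KO than WT means, beside 46.2% of all genes. Cspg4 and Dcn had the smallest p in the mural and the fibroblast list (−0.51 ± 0.25 and −0.74 ± 0.33 log2). The part of these cells in the differences of the members was not tested. Of the leukocyte genes 2 of 7 tested rose, Cd8a and Cd79a, beside 4.16% of all genes.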

How the data were processed

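Per the submitters' processing notes, the authors made the deposited values with RMA, version not given, and the log2 scale was read from the values. The background correction, quantile normalisation and summary that RMA performs make array distributions alike, so a shift common to most genes is not visible. Annotation gave 1 gene symbol for 34945 of 45101 probe sets, and 34741 of these were renamed by Entrez identifier from a RefSeq table (GRCm38.p6).

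The brightest probe set on average stood for each of 18193 genes, and the 12250 genes whose mean reached the 40th percentile of the array were tested with limma 3.58.1 (R 4.3.3, statmod 1.5.0), with mouse as a random block (consensus correlation 0.0586). The 14 endothelial probe sets were also read from a fit over 22760 probe sets (consensus correlation 0.0769). P-values were adjusted over each whole table by Benjamini-Hochberg. Precision is set by 10 arrays from 5 mice, and nothing in the labels says that tumours of a mouse are independent. The members and gene lists were chosen with earlier results of these data known. Named genes are all members, up to 4 tested genes of smallest p per list, and the 8 genes most like the members, with clone names left out. Alternatives changed the block, unit, filter, probe set choice, scaling, covariates, and tumours or mice included.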

Additional observations from a re-analysis of the deposited data

Results flagged for a closer look

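Among 58 groups of 5 tumours examined (each endothelial probe set, 4 vessel growth genes and the marker lists, in each genotype), 13 held a tumour set apart by a gap of over 0.71 of the whole range of the group. Chance alone gives about 1 in 20 such groups, and these groups share tumours. WT tumour 3 was the low tumour in 8 of them: Pecam1 at 6.83 (other WT tumours 7.86 to 8.10), Emcn at 5.01 (6.21 to 6.47), Esam at 6.46 (7.17 to 7.43), both x_at probe sets of Egfl7 at 5.81 (6.53 to 6.81) and 7.32 (7.98 to 8.15), and the mean levels of the endothelial members at 6.54, mural genes at 6.94 and fibroblast genes at 9.51. KO tumour 2 was apart as high in Kdr, at 8.35 (other KO tumours 7.25 to 7.45), and in Flt1, at 7.58 (6.54 to 6.75), and as low in the mean of leukocyte genes, at 8.60 (8.73 to 8.77). KO tumour 7 was high in Pgf, at 6.10 (5.75 to 5.85), and WT tumour 1 in Sox18, at 8.84 (7.27 to 7.60).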

How the results depend on the processing

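The count of 0 endothelial genes called held in 27 of 29 alternatives, which called between 30 (within the lower number range) and 1084 (no block) genes in all, against 868, so that a count of 0 says little where few genes were called. It was 1 without mouse 72 (Cldn5, with a single WT tumour left) and 1 without WT tumour 3 and KO tumour 2 (Tek), a setting chosen after the values were seen. For probe sets the count was 0 in 21 of 22 alternatives and 1 without mouse 72. The median difference over the members was −0.12 log2. It turned to 0.08 with the 3′ to 5′ covariate and 0.05 without mouse 04, so its direction is not settled. It was −0.50 without WT tumour 3 and KO tumour 2, but leaving out a low WT and a high KO tumour could be foreseen to lower it. Cdh5, Tek, Vwf and Cldn5 kept a negative difference in every alternative run.

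The other 6 members changed sign in some. Pecam1 was −0.095 over mouse means, −0.0081 with cyclic loess, −0.073 with the number range as a covariate, −0.15 within the upper number range, −0.29 without WT tumour 3 and KO tumour 2, −0.13 without mouse 02, −0.30 without mouse 72, and −0.21 to 0.11 without single tumours. Emcn was, in the same order but without the loess value, −0.096, −0.032, −0.084, −0.45, −0.26, −0.34 and −0.22 to 0.18. Egfl7 was −0.12 as the mean of its probe sets, −0.089 within the lower number range, −0.057 without WT tumour 3 and KO tumour 2, −0.13 without mouse 02, and −0.033 to 0.16 without single tumours. With the 3′ to 5′ covariate Kdr was 0.076, Esam 0.13 and Plvap 0.086. Without mouse 04 they were 0.033, 0.075 and 0.11. Kdr was 0.14 without mouse 72, and Esam 0.0011 without mouse 99. Without single tumours Esam ran from −0.32 to 0.0011 and Plvap from −0.35 to 0.012. These 34 sign changes had adjusted p-values of 0.0989 or more (limma), and the cause was not tested. No paired analysis was possible because no mouse gave tumours of both genotypes and the labels link no KO tumour to a WT tumour. Low signal limits Cldn5, Emcn, Cdh5 and 1 probe set of Egfl7, whose values lie partly under the level filter. Pgf was under it in KO tumour 11. Tek and Dll4 came close to it, at 5.82 in KO tumour 6 and 5.86 in WT tumour 3, so their fold sizes are not exact either.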
